A study of Mus musculus with 64 samples.

Results

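Transcripts of CD4 T cells that had lost Roquin were compared directly with those of cells that had lost Regnase-1, both after 4 h of restimulation. The comparison rests on 8 of the 64 libraries of the series, 4 from cells lacking Roquin-1 and Roquin-2 (Rc3h1/2 fl/fl; Cd4-Cre-ERt2, called DKO) and 4 from cells lacking Regnase-1 (Zc3h12a fl/fl; Cd4-Cre-ERt2, called KO). They were chosen by genotype and time alone. All cells came from spleens of C57BL/6J mice, were CD4 T cells and carried the same tamoxifen-inducible Cre driven by Cd4, so treatment with 4´-OH-tamoxifen and the Cre itself were common to both groups. After deletion the cells were activated through CD3 and CD28 under Th1 conditions, kept in medium with IL-2, and then restimulated with anti-CD3/28. Cells with Cre alone (WT) and cells with the floxed alleles of Rc3h1/2 and of Zc3h12a together, and the same Cre (called TKO), are given beside them at 4 h, and DKO and KO cells before restimulation (0 h) and after 1 and 2 h. The labels give no ages, and they leave it unsaid whether libraries of 1 group are from different mice or cultures. P-values therefore reflect only library-to-library spread, part or all of which could be technical.

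Roquin-1 and Roquin-2 are RNA-binding proteins that recognise short stem-loops in the 3′ untranslated regions (UTRs) of mRNAs and recruit deadenylation and decapping enzymes. Regnase-1 is an endonuclease that cleaves mRNAs at stem-loops of a similar kind. Both are known to restrain mRNAs of T cell activation, and some of their reported targets are shared. The direct comparison asks which transcripts depend more on one of these repressors than on the other late in the response.

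Levels are given as CPM, counts per 1e6 reads after scaling by the trimmed mean of M values (TMM). Differences are log2 differences, DKO minus KO, ± SE with n = 4 libraries per group, and genes with an adjusted p under 0.05 are said to be called (limma, Benjamini-Hochberg adjustment over 16140 genes). The SE comes from the fit to all 64 libraries, so it can differ from the spread of the 8 libraries compared. Depth was 6781419 to 9759627 reads in the DKO libraries and 8197093 to 11663257 in the KO libraries. DKO library 4 and KO library 1 had the lowest mean rank correlations with the other libraries of their groups, 0.975 and 0.976, against 0.979 to 0.984 for the rest. Without both, 21 of the 51 called genes named below were not called, with adjusted p of 0.052 (Il17f) to 0.36 (Id3). They were Adcy5, Igsf9b, Fasl, Ebi3, Nr4a2, Cpq, Galm and Tor3a on the DKO side, and Il17f, Batf, Cd74, Cd2, Birc3, Cxcr6, Id3, Dcp2, Ifitm1, Gbp2, Ccnd3, Ctss and Klrd1 on the KO side.

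Of 16140 genes tested, 493 (3.05%) were called, 74 of them higher in DKO (0.458%) and 419 higher in KO (2.6%). That split depended on the scaling. Genes higher in DKO made up 15% of the calls under TMM and 57.8% under the deposited scaling, which gave 130 genes higher in DKO and 95 higher in KO. The median over all genes moved from -0.10 to 0.08 between these scalings. A set of 147 genes (0.911%) kept its call and direction under all 5 scalings tried, 61 of them higher in DKO (0.378%) and 86 higher in KO (0.533%). The median size of the difference was similar on both sides, 1.22 log2 units for the genes higher in DKO and 1.23 for those higher in KO. Under TMM the genes higher in KO were the steadier side: 75 of the 86 were called whichever single library was left out, against 11 of the 61. Without DKO library 4, 23 of the 61 and 77 of the 86 were still called. Libraries were left out under TMM only, where the median over all genes was -0.10, toward KO. How far that scaling sets the gap in steadiness was not tested. The genes higher in DKO were also the less abundant, with 29 of 61 under 5 CPM in both groups against 10 of 86.

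**Figure D1:**
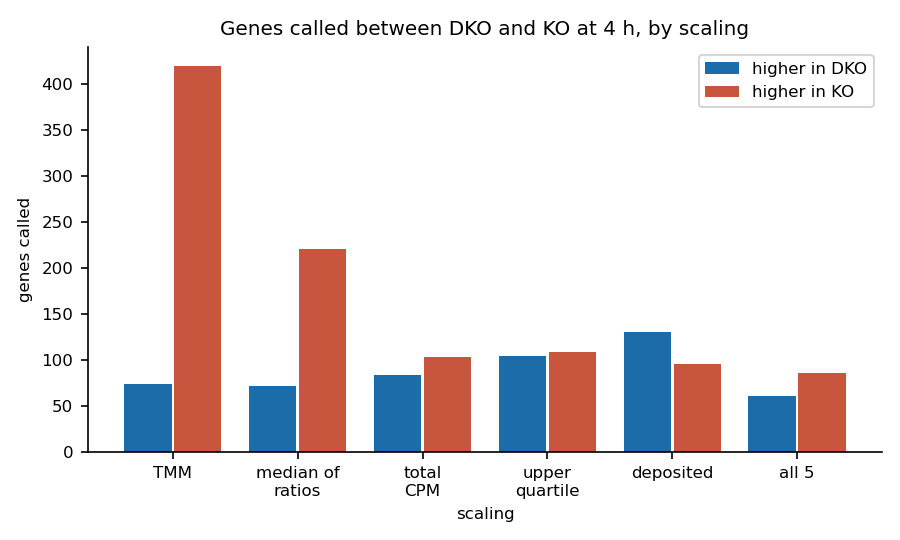
Number of genes called between DKO and KO at 4 h (vertical axis) under each of 5 scalings and under all 5 together (horizontal axis), with genes higher in DKO in blue and genes higher in KO in red. TMM gave 74 and 419 genes, the deposited scaling 130 and 95, and 61 and 86 were called under all 5.

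The targeted genes came first. Rc3h1, which encodes Roquin-1, was at 69.1, 63.4, 68.7 and 67.6 CPM in the DKO libraries and at 204.2, 150.9, 160.0 and 176.0 CPM in the KO libraries. The groups did not overlap, and Rc3h1 was lower in DKO by 1.35 log2 units on average (-1.35 ± 0.10, adjusted p = 1.1e-14), where 13.6% of all genes tested had groups that did not overlap. The exact permutation test over 70 arrangements of the 8 libraries gave p = 0.0286, the smallest it can give, and 0.0429 after adjustment over the 3 targeted genes. At 0 h the mean of Rc3h1 was 63.1 CPM in DKO and 83.0 CPM in KO, a smaller difference of -0.4. At 4 h the means were 67.2 and 173 CPM, so the gap widened with a higher level in KO. How much of the gap at 4 h comes from the deletion was not tested. Rc3h2, which encodes Roquin-2, was at 70.3 to 88.8 CPM in DKO and 83.2 to 114.4 CPM in KO, overlapping ranges, and was not called (-0.24 ± 0.12, adjusted p = 0.27; exact permutation p = 0.171). The count over a whole gene does not separate the floxed exons from the rest, so the level of Rc3h2 does not check its deletion.

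Zc3h12a, which encodes Regnase-1, was at 44.9, 39.8, 32.6 and 46.0 CPM in DKO and at 22.5, 11.9, 13.8 and 17.6 CPM in KO. Every DKO library lay above every KO library, a 2.5-fold difference (1.33 ± 0.19, adjusted p = 3.2e-06; exact permutation p = 0.0286). In WT cells the level was 18.1 ± 3.18 CPM (SD, n = 4), so DKO, and not KO, departed from WT: DKO against WT gave 1.17 ± 0.19 and KO against WT -0.16 ± 0.19 (adjusted p = 0.51). The level of the gene in KO was thus close to that in WT, and this count does not show the Zc3h12a deletion. That these libraries lack Regnase-1 rests on their labels. In TKO cells, which carry the floxed Zc3h12a alleles on the Roquin-deficient background, it was 15.8 ± 1.35 CPM, below every DKO library. Zc3h12a was higher in DKO at 0, 1 and 2 h too, with differences of 1.45, 1.08 and 1.28.

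Stem-loops of the kind that both proteins are known to bind were looked for in the 3′ UTR of each gene. The search asked for a stem of at least 5 Watson-Crick pairs closed by a loop of a pyrimidine, a purine and a pyrimidine, on the transcript's strand, in the longest 3′ UTR of the GENCODE M21 annotation (GRCm38). The matches below, each with a stem of at least 6 pairs, belong to reported targets that were called between the groups and to others that were not. Further matches of Icos, Zc3h12a and Tnf are not printed, among them the Icos match with the longest stem, of 9 pairs. They are printed 5′ to 3′ with the stem in lower case and the loop in capitals.
Nfkbid, chr7:30428402-30428416, plus strand: gatttcTGTgaaatc
Nfkbid, chr7:30428430-30428444, plus strand: tgtttcTGTgaaaca
Zc3h12a, chr4:125119069-125119083, minus strand: gatacaCATtgtatc
Zc3h12a, chr4:125118887-125118901, minus strand: aggcacCATgtgcct
Nfkbiz, chr16:55812613-55812629, minus strand: ttgtttcTATgaaacaa
Nfkbiz, chr16:55812586-55812600, minus strand: cactatTATatagtg
Icos, chr1:60999831-60999845, plus strand: atttccTATggaaat
Tnfrsf4, chr4:156016541-156016555, plus strand: gtatgcTATgcatac
Tnf, chr17:35199585-35199599, minus strand: gttttcTGTgaaaac
Ctla4, chr1:60915765-60915779, plus strand: attttcCATgaaaat
Nfkbid and Nfkbiz both carry a pair of such matches close together, and yet they differed in opposite directions between DKO and KO. At least 1 match was found in 14 of 55 genes higher in DKO with an annotated 3′ UTR (25.5%), in 21 of 76 higher in KO (27.6%) and in 24.3% of 13558 genes tested. Among 3′ UTRs of 500 to 2000 bases it was found in 8 of 27 genes higher in DKO (29.6%), in 10 of 32 higher in KO (31.2%) and in 20.0% of 6012 genes tested. The shares were not compared by a test. A match is a run of letters and not a measured binding site.

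The reported target mRNAs that were called differed in both directions. Of 12 reported Roquin targets tested, 2 were higher in DKO (Nfkbid and Zc3h12a) and 1 was higher in KO (Nfkbiz). Of 12 reported Regnase-1 targets tested, the same 2 were higher in DKO and 2 were higher in KO (Nfkbiz and Batf). Of all genes tested, 0.458% were called higher in DKO and 2.6% higher in KO. The median difference was 0.02 for the first list and -0.11 for the second, against -0.10 for all genes tested.

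Nfkbid encodes IκBNS, a nuclear regulator of NF-κB. It was at 721.3, 535.5, 475.5 and 686.8 CPM in DKO and at 584.8, 139.0, 168.0 and 182.0 CPM in KO. KO library 1 lay within the DKO range and the other KO libraries lay well below it (1.42 ± 0.28, adjusted p = 0.0013). Without KO library 1 the difference was 1.88 (adjusted p = 8.2e-07), and with only the groups compared in the fit it was not called (adjusted p = 0.16). TKO cells were at 588 ± 85.3 CPM and WT cells at 268 ± 93.4 CPM. At 0 h Nfkbid was also higher in DKO (1.99 ± 0.28, adjusted p = 4.4e-06), and at 1 and 2 h the differences were 0.15 and 0.43 and were not called.

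Nfkbiz encodes IκBζ, a nuclear IκB family member that acts with NF-κB on secondary response genes. Its level was 50.2, 50.3, 64.7 and 57.9 CPM in DKO and 161.4, 85.4, 109.3 and 120.1 CPM in KO. The groups did not overlap, and Nfkbiz was 2.1-fold higher in KO (-1.06 ± 0.21, adjusted p = 0.0013). DKO cells stood at the WT level of 53.0 ± 9.69 CPM, whereas TKO cells were at 177 ± 9.37 CPM. Batf, a transcription factor of effector T cells, was at 91.7 to 146.9 CPM in DKO and 194.3 to 234.4 CPM in KO, again without overlap (-0.77 ± 0.16, adjusted p = 0.002). Batf was not called under total CPM scaling, nor without both libraries that stood apart (-0.63, adjusted p = 0.074).

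The surface receptors among the reported targets did not pass the test. Icos, the inducible costimulator, was at 244.0, 279.7, 207.8 and 57.0 CPM in DKO and at 104.4, 588.5, 386.3 and 443.6 CPM in KO. The lowest value of each group came from the library that stood apart, and the difference was -0.93 ± 0.40 (adjusted p = 0.20). Without KO library 1 it was -1.46 (adjusted p = 0.023), and without both libraries -0.94 (adjusted p = 0.27). Tnfrsf4, which encodes the costimulatory receptor OX40, was at 487.4 to 663.9 CPM in DKO and 288.3 to 563.1 CPM in KO (0.58 ± 0.30, adjusted p = 0.28). For Ctla4, the inhibitory counterpart of Cd28, the ranges overlapped almost fully, 29.2 to 98.6 CPM in DKO and 24.7 to 100.6 CPM in KO (-0.03 ± 0.42, adjusted p = 0.97).

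Tnf, a proinflammatory cytokine, was at 166.4 to 358.3 CPM in DKO and at 336.0, 87.1, 90.5 and 120.9 CPM in KO (0.81 ± 0.34, adjusted p = 0.19). KO library 1 was again the exception, and without it the difference was 1.25 (adjusted p = 0.029). For Il2, the T cell growth factor, KO library 1 held 1351.2 CPM and the other KO libraries 191.4 to 369.1 CPM, against 279.8 to 968.5 CPM in DKO (0.29 ± 0.51, adjusted p = 0.77). Differences for Irf4, Rel, Il6, Ier3, Tfrc, Egln3, Ptgs2 and Hmgxb3 ranged from -1.02 (Il6) to 1.31 (Ier3) and none was called.

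**Figure D2:**
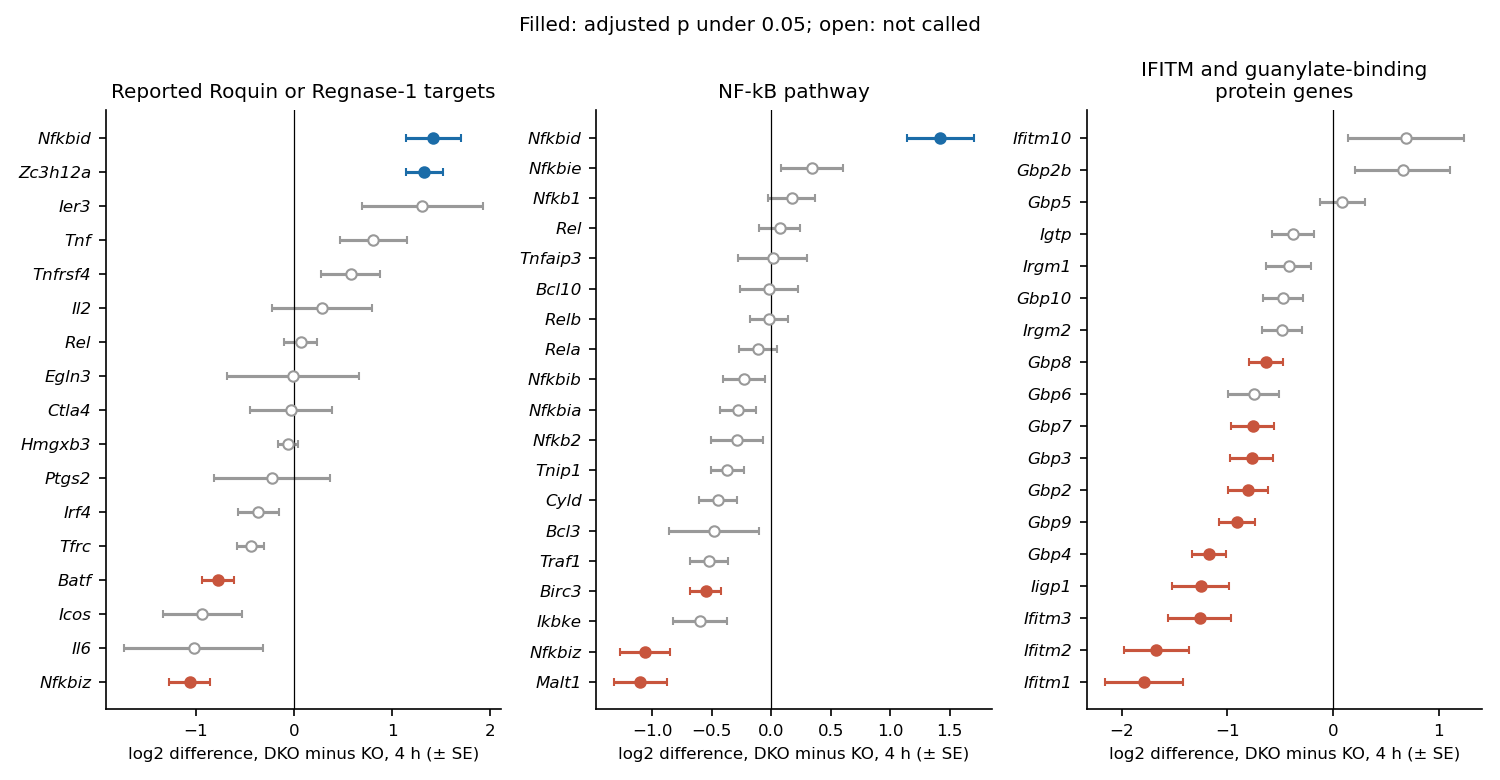
Log2 difference DKO minus KO at 4 h with its SE (horizontal axis) for each tested member of the reported target lists (left), the NF-κB pathway (middle) and the IFITM and guanylate-binding protein families (right), with called genes filled and the others open. Among the reported targets, Nfkbid (1.42) has the highest value and Nfkbiz (-1.06) the lowest, and 10 of the 18 members on the right are called, all on the side of higher levels in KO.

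Most NF-κB pathway genes were not called. Of 19 members tested, 1 was higher in DKO (Nfkbid), where 0.458% of all genes were, and 3 were higher in KO (Nfkbiz, Malt1 and Birc3), where 2.6% of all genes were. Malt1 encodes a paracaspase that signals downstream of the antigen receptor and was at 58.8 to 83.9 CPM in DKO and 112.6 to 220.5 CPM in KO (-1.10 ± 0.22, adjusted p = 0.0013). Birc3, an inhibitor of apoptosis, gave -0.55 ± 0.13 (adjusted p = 0.0072). Birc3 was not called without DKO library 4, without both libraries that stood apart, or under the deposited, upper-quartile and total CPM scalings, which left 3 members called. The median over the pathway was -0.28, against -0.10 for all genes.

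Among cytokine and TNF superfamily ligand genes, Il12a, Ebi3 and Fasl were higher in DKO. Il12a and Ebi3 encode the subunits of IL-35, and each also pairs with other partners in the IL-12 family. Il12a was at 2.0, 1.3, 4.6 and 5.5 CPM in DKO and at 0.39, 0.10, 0.11 and 0.38 CPM in KO, which is 121 reads against 10 over the groups (3.10 ± 0.56, adjusted p = 0.00032). All DKO libraries lay above all KO libraries, at low levels. Ebi3 was at 7.0, 5.6, 6.5 and 4.8 CPM in DKO and at 1.7, 2.1, 1.5 and 2.8 CPM in KO (1.53 ± 0.39, adjusted p = 0.017), and it was not called without KO library 3 or without both libraries that stood apart. Its level was 0.898 ± 0.617 CPM in WT and 19.5 ± 2.63 CPM in TKO, so TKO stood above both single losses. The gene Gm16712 overlaps Ebi3 on the opposite strand with 8.2% as many reads.

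Fasl, the ligand of the death receptor Fas, was at 31.0, 24.4, 52.5 and 51.6 CPM in DKO and at 15.4, 9.1, 8.1 and 20.7 CPM in KO. The groups did not overlap, a 3.0-fold difference (1.60 ± 0.38, adjusted p = 0.0087). WT cells held 42.8 ± 12.9 CPM and TKO cells 4.64 ± 2.23 CPM, so DKO resembled WT in level and KO was lower. Without DKO library 4 the call was lost (1.45, adjusted p = 0.061), and without KO library 3 too (1.40). With only the groups compared in the fit Fasl was not called either. Among 13 TNF superfamily ligands tested, Fasl was the member called, where 0.458% of all genes were called higher in DKO. The median of the list was 0.59. Cd70 (1.33, adjusted p = 0.12) and Lta (0.76, adjusted p = 0.15) were not called.

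On the KO side, Il24 and Il17f stood out among 22 cytokines tested, of which 2 were higher in each genotype. Of all genes tested, 0.458% were called higher in DKO and 2.6% higher in KO. Il24, an IL-10 family cytokine, was at 16.5, 14.9, 99.0 and 18.6 CPM in DKO and at 154.6, 167.9, 81.7 and 236.5 CPM in KO (-2.52 ± 0.53, adjusted p = 0.0027). DKO library 3 lay above the lowest KO library, so the groups overlapped, and with only the groups compared in the fit Il24 was not called (adjusted p = 0.12). Il17f, a Th17 cytokine, was at 2.8 to 9.5 CPM in DKO and 15.8 to 60.2 CPM in KO (-2.50 ± 0.56, adjusted p = 0.0056). It lost its call without both libraries that stood apart (adjusted p = 0.052, and up to 0.065 over the alternatives). Ifng, the hallmark Th1 cytokine, gave -0.70 (adjusted p = 0.51), and none of 12 Th1 genes tested was called, where 3.05% of all genes were.

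Several receptors and an adhesion molecule were among the genes higher in KO. Pecam1, which encodes the adhesion molecule CD31, was at 40.7, 32.2, 27.8 and 24.2 CPM in DKO and at 126.1, 98.1, 89.8 and 104.1 CPM in KO. It was 3.4-fold higher in KO (-1.75 ± 0.20, adjusted p = 1.3e-08) and was called under each of the 20 alternatives. Hrh2, the histamine receptor H2, was at 16.2, 15.8, 7.9 and 7.9 CPM in DKO and at 45.3, 52.3, 48.5 and 58.6 CPM in KO (-2.17 ± 0.20, adjusted p = 2.6e-11). Kit, the stem cell factor receptor, was at 1.8 to 4.7 CPM in DKO and 13.8 to 17.4 CPM in KO (-2.16 ± 0.41, adjusted p = 0.00079). In all of them WT cells were near the DKO level, at 24.0, 6.55 and 1.88 CPM, and TKO cells were near or above the KO level, at 126, 42.5 and 36.8 CPM.

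Tnfrsf25, which encodes death receptor 3, was at 11.0, 13, 12.9 and 8.7 CPM in DKO and at 30.3, 35.0, 34.5 and 30.7 CPM in KO (-1.52 ± 0.20, adjusted p = 3.5e-07). The libraries of each group lay close together and far from the other group. Of 14 costimulatory receptors tested, it and Cd2 (-0.68, adjusted p = 0.018) were called, where 3.05% of all genes were, but Cd2 lost its call under the other 4 scalings. Of 32 cytokine and chemokine receptors tested, Kit, Ccr4 (-1.07) and Cxcr6 (-1.10) were higher in KO and none was higher in DKO. Of all genes tested, 2.6% were called higher in KO and 0.458% higher in DKO. Under the deposited scaling 3 of these receptors were called, 2 of them higher in KO. Fyco1 overlaps Cxcr6 on the opposite strand with 329.1% as many reads, so the Cxcr6 value is uncertain, and it was called under TMM alone among the scalings. Bcl2, the antiapoptotic protein of mitochondria, was at 76.2 to 130.9 CPM in DKO and 145.5 to 226.6 CPM in KO (-0.81 ± 0.16, adjusted p = 0.0011).

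**Figure D3:**
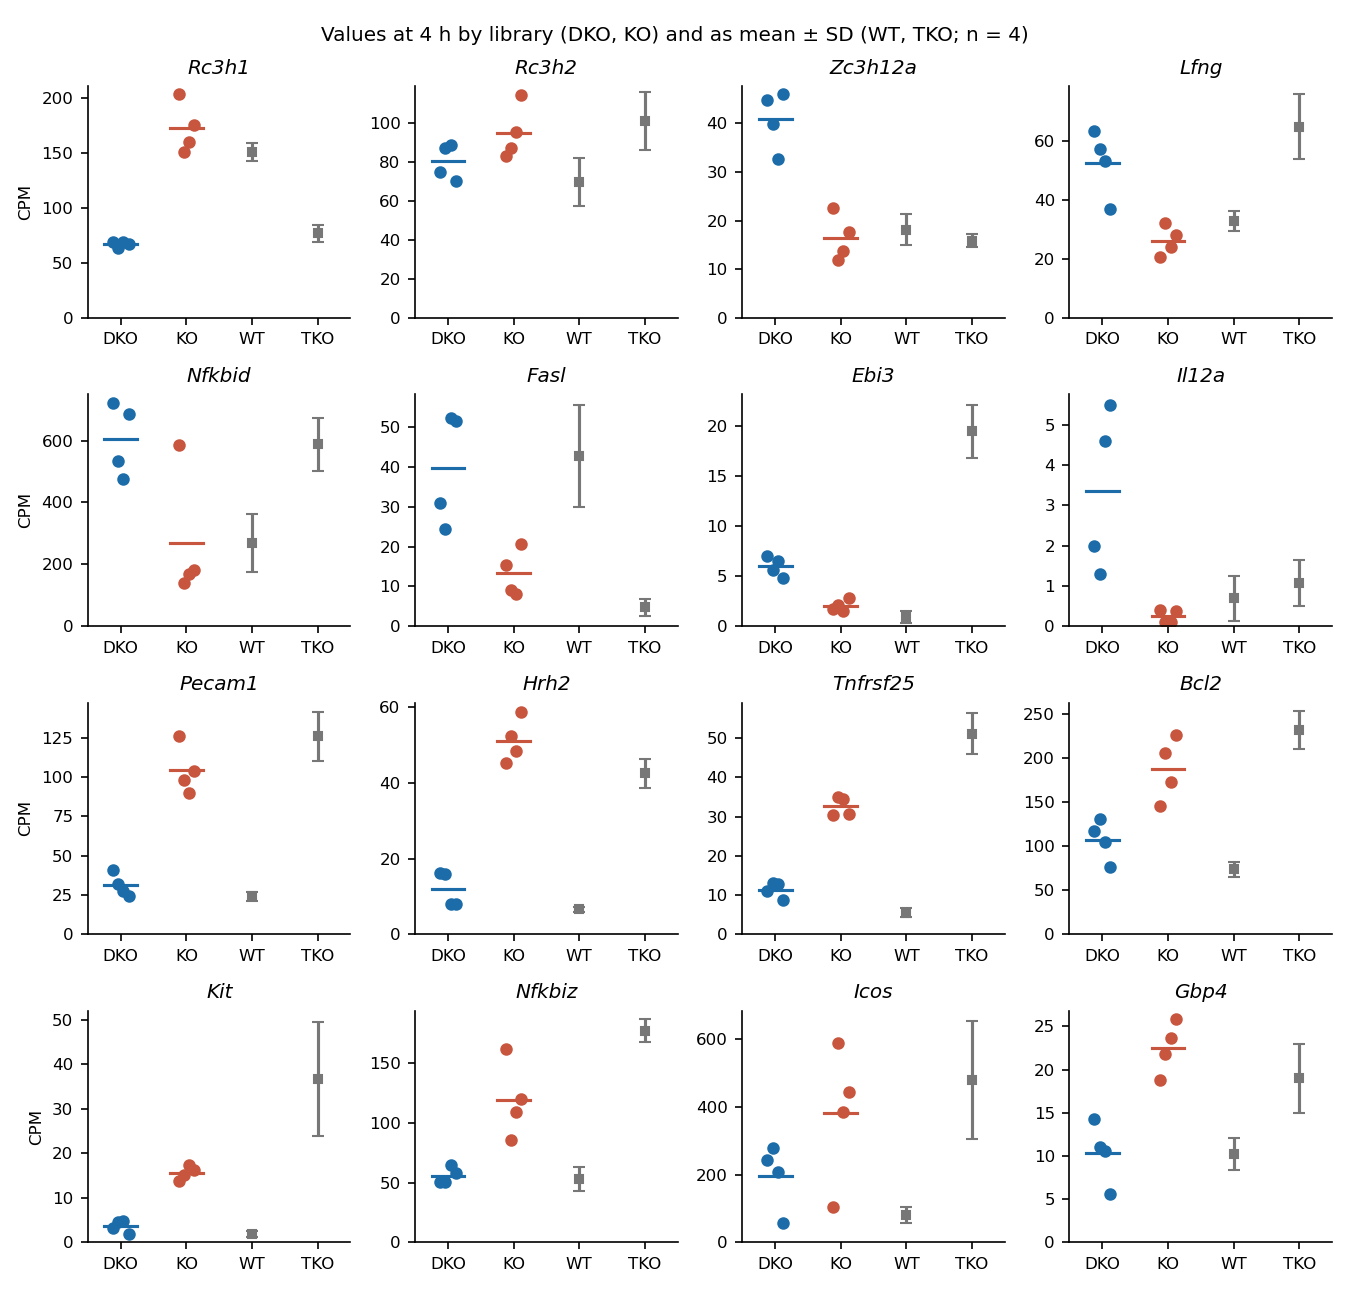
CPM (vertical axes, each from 0) at 4 h of 16 genes, with a point for each of the 4 DKO (blue) and KO (red) libraries, a line at their mean, and WT and TKO as mean ± SD (grey, n = 4). Pecam1, Hrh2, Tnfrsf25 and Kit have low DKO and WT values beside high KO and TKO values, and in Nfkbid and Icos a single KO library (library 1) lies far from the other KO libraries.

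The guanylate-binding protein (GBP) and immunity-related GTPase genes, induced by interferon-γ and active against intracellular pathogens, differed in 1 direction where they were called. Of 14 tested, 7 were called, all higher in KO, where 2.6% of all genes were: Gbp2, Gbp3, Gbp4, Gbp7, Gbp8, Gbp9 and Iigp1. The median over the list was -0.69, against -0.10 for all genes. Under all 5 scalings 3 were called, where 0.533% of all genes were called higher in KO. Gbp4 was at 14.3, 11.0, 10.6 and 5.6 CPM in DKO and at 18.8, 21.8, 23.7 and 25.8 CPM in KO (-1.17 ± 0.16, adjusted p = 2.2e-06). The count fell to 2 without DKO library 4, to 4 without KO library 4, to 3 without both libraries that stood apart and to 3 under the deposited scaling. Gbp4, Gbp9 and Iigp1 were called under all 5 scalings, but Iigp1 not without DKO library 4. The IFITM genes, membrane proteins that restrict virus entry, gave 3 of 4 tested higher in KO: Ifitm1 (-1.79), Ifitm2 (-1.67) and Ifitm3 (-1.26). The 6 IFITM genes found summed to 7.26 to 13.95 CPM in DKO, 23.46 to 36.25 in KO and 27.62 to 60.86 in WT, so DKO lay below WT. The 14 GBP and immunity-related GTPase genes summed to 178 to 310 CPM in DKO, 340 to 401 in KO and 199 to 273 in WT, so KO lay above WT. Ifitm2 was at 2.4 to 7.3 CPM in DKO and 10.1 to 21.1 CPM in KO. Ifitm1 was not called without both libraries that stood apart (-1.40), and Ifitm3 was not called under the deposited scaling or without DKO library 2. Among 22 other interferon-stimulated genes, Zbp1 was called (9.4 to 12.2 CPM in KO against 5.0 to 5.6 CPM in DKO) and the median was -0.28. That is 4.5% of the list, near the 3.05% called among all genes tested. Members of these families are similar in sequence, and the way reads were divided among them is not stated in the labels or headers.

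By size of difference, the 12 leading genes higher in KO were Zfp608, Cebpd, Il17f, Serpina3f, AA467197, Marcks, Hrh2, Kit, Gcnt1, Cd74, Milr1 and Pecam1, from -2.71 (Zfp608) to -1.75 (Pecam1). Gcnt1 encodes a glycosyltransferase that builds core O-glycans, and it was at 8.3 to 13.7 CPM in DKO and 34.0 to 49.5 CPM in KO. Marcks, a substrate of protein kinase C, was at 3.1 to 9.3 and 17.4 to 28.8 CPM. AA467197 was at 6.9 to 10.9 and 29.1 to 57.2 CPM. Cebpd, at 0.47 to 1.5 and 2.9 to 14.1 CPM, overlaps Spidr on the opposite strand, which had 756.9% as many reads, and Milr1 overlaps Polg2 with 37.1% as many. Of these 12, 10 were called whichever single library was left out, and Cebpd and Cd74 were not called without DKO library 4.

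The 12 leading genes higher in DKO were Adcy5, Igsf9b, Fasl, Ebi3, Capn5, Zc3h12a, Nr4a2, Cpq, Galm, Lfng, Tor3a and H2-Q6, from 2.54 (Adcy5) to 0.96 (H2-Q6). Lfng, a glycosyltransferase that modifies Notch receptors, was at 63.3, 57.3, 53.1 and 36.7 CPM in DKO and at 20.6, 32.0, 23.8 and 27.9 CPM in KO (1.00 ± 0.20, adjusted p = 0.0011). The groups did not overlap, and Lfng and Zc3h12a were called under each of the 20 alternatives. Nr4a2, an orphan nuclear receptor induced by antigen receptor signals, was at 42.8 to 90.9 CPM in DKO and 16.9 to 29.9 CPM in KO (1.22 ± 0.33, adjusted p = 0.028). It was the member called among 22 immediate early genes tested, where 0.458% of all genes were called higher in DKO. Nr4a2 was not called without DKO library 3, KO library 1 or KO library 2, nor without both libraries that stood apart (1.30, adjusted p = 0.11). It also lost its call with no filter on low genes and with only the groups compared in the fit. Cpq, a peptidase, lost its call without both (0.91, adjusted p = 0.075). Adcy5, an adenylate cyclase, rested on DKO library 3 (19.8 CPM against 2.9 to 3.6 CPM in the other DKO libraries), without which it was not called, and it was not called without KO library 1 either. Igsf9b, Galm, Tor3a, H2-Q6 and Capn5 were not called without DKO library 4, with adjusted p at most 0.10 (Galm) over their alternatives. Leaving out KO library 2 also ended the calls of Capn5, Galm and Tor3a, leaving out KO library 3 those of Capn5 and H2-Q6, and leaving out DKO library 3 that of Capn5 (1.26, adjusted p = 0.074). Of all 12 genes, 3 were called whichever single library was left out. At least 1 stem-loop match was found in 5 of these 12 genes and in 1 of the 12 higher in KO, against 24.3% of 13558 genes tested. In the full sets called under all 5 scalings the shares were 25.5% (higher in DKO) and 27.6% (higher in KO).

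Lists of 10 to 25 genes hold less than 1 call on average at the share of all genes called (3.05%), so a list with no call, or 1, is near that background. Lists with no called member were 12 inhibitory receptors (median 0.13), 10 chemokines (0.31), 12 Tfh genes (-0.11), 20 ribosome biogenesis genes (-0.11), 24 glycolysis and hypoxia response genes (-0.25), 17 cholesterol synthesis genes (-0.03) and 25 tRNA synthetase and ATF4 pathway genes (-0.18). Of 26 mRNA decay factors 1 was called, Dcp2 (-0.42, adjusted p = 0.023), and of 25 cell cycle genes 1, Ccnd3 (-0.59, adjusted p = 0.039). Of 12 Th2 genes Il24 and Ccr4 were called, of 12 Th17 genes Il17f and Batf, of 11 Treg genes Gpr83 (-2.12) and of 12 naive and memory T cell genes Id3 (-1.20), all higher in KO. Gpr83 and Id3 were not called without DKO library 4. Id3 was also not called under the upper-quartile or total CPM scaling or without KO library 3, and Gpr83 not with only the groups compared. Dcp2 and Ccnd3 were not called under the deposited, upper-quartile or total CPM scaling, and Ccnd3 not under median-of-ratios scaling, with a filter in 8 libraries or with only the groups compared. Dcp2 was called in the absence of DKO library 1 or KO library 2 and of no other, and Ccnd3 was not called without DKO library 3 or 4 or KO library 2 or 3.

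Earlier times, measured in other libraries, mostly had the same direction. Whether libraries of different times share animals is not stated in the labels. Of the 86 genes higher in KO at 4 h, 76 had the same sign at 0 h, 81 at 1 h and 85 at 2 h, where 50.1%, 51.4% and 47.5% of all genes had that sign. Of these 86, 15 were called in that direction at 0 h, 23 at 1 h and 56 at 2 h, against 0.353%, 0.533% and 1.34% of all genes tested. Of the 61 genes higher in DKO, 52, 48 and 55 had the same sign and 14, 14 and 16 were called at 0, 1 and 2 h, against 0.836%, 0.799% and 1.47% of all genes. None of the 147 genes was called in the opposite direction at these times. All 12 leading genes higher in KO were called at 2 h, and 2 of them (AA467197 and Serpina3f) at 0 h. Among the 12 higher in DKO, Zc3h12a, Ebi3, Lfng and H2-Q6 were called at all times.

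**Figure D4:**
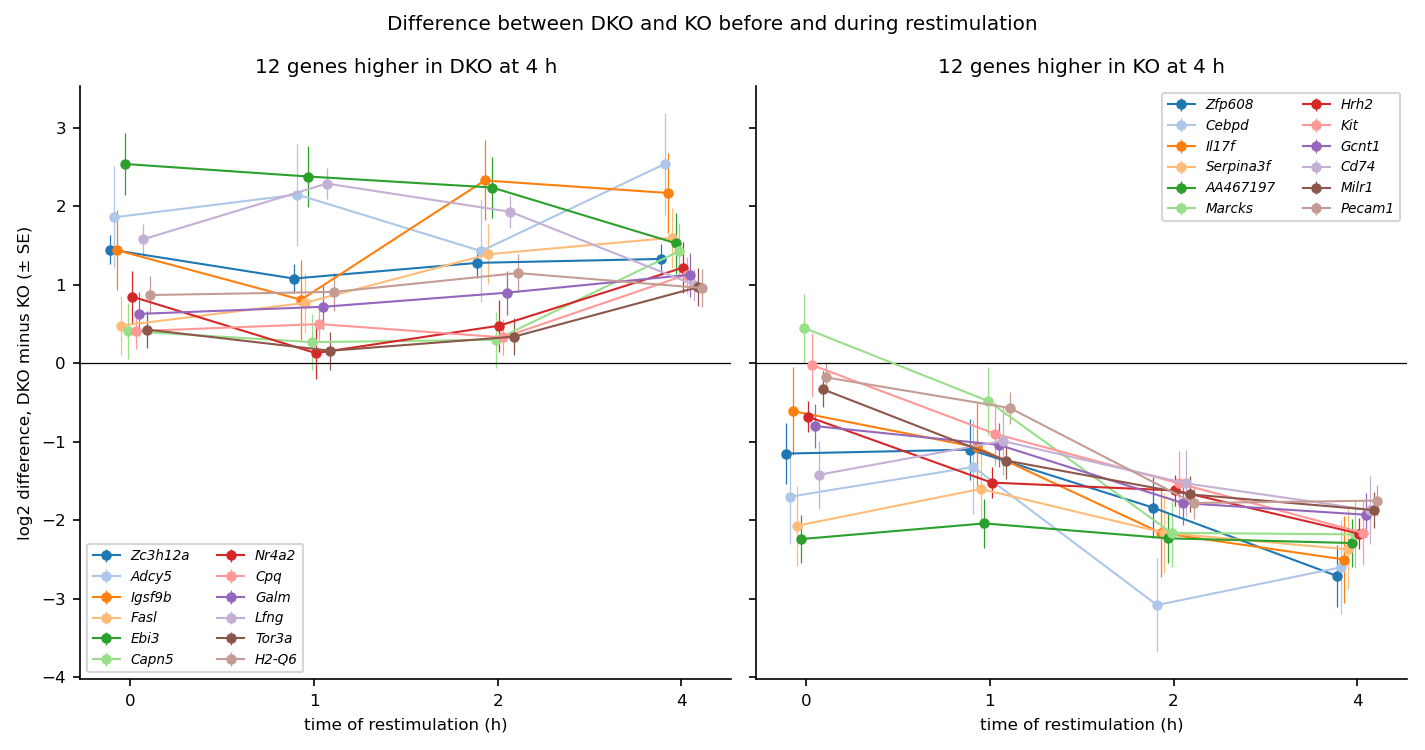
Log2 difference DKO minus KO with its SE (vertical axis) at 0, 1, 2 and 4 h of restimulation (horizontal axis) for the 12 leading genes higher in DKO (left) and the 12 higher in KO (right). Ebi3 and Lfng lie above 0 at each time, and Pecam1 (-0.18), Marcks (0.45) and Kit (-0.02) lie closer to 0 at 0 h than at 2 and 4 h.

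A test of whether the difference itself changed between 0 and 4 h called 30 genes (0.186%), 28 of them with a more negative difference at 4 h, and 10 (0.062%) under all 5 scalings. Over all genes the median change was -0.11 under TMM, and how far the scaling sets this split was not tested. Of the 10 genes called under all 5 scalings, 9 had a more negative difference at 4 h. Tnfrsf25, with the largest change toward KO among these 10, was at 20.4 ± 4.98 CPM in DKO and 13.9 ± 2.26 CPM in KO at 0 h, and at 11.4 ± 2.03 and 32.6 ± 2.46 CPM at 4 h (SD, n = 4; change in the difference -2.05 ± 0.28, adjusted p = 1.3e-05). Pecam1 was at 169 ± 54.5 CPM in DKO and 190 ± 47.6 CPM in KO at 0 h, and at 31.2 ± 7.13 and 105 ± 15.5 CPM at 4 h, so that its level fell in both genotypes and further in DKO (change -1.57, adjusted p = 0.0017). Hrh2 changed by -1.49 (adjusted p = 0.0043). Fchsd2, whose opposite-strand neighbour Atg16l2 has 36.5% as many reads, was higher in DKO at 0 h, at 143 against 68.8 CPM (1.05), and differed by -0.45 at 4 h, which was not called (change -1.49, adjusted p = 0.00012). Id2, an inhibitor of E proteins, was at 86.6 CPM in DKO and 49.1 CPM in KO at 0 h (0.80) and differed by -0.42 at 4 h, which was not called (change -1.23, adjusted p = 0.0065). The remaining genes were Wdr59, Rc3h1, Polr1c and Notch2, with changes of -1.05 to -0.89, and the predicted gene Gm14085, with a change of 2.06, named here after their values were seen.

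WT and TKO cells show on which side each difference lay. This is a description with no test, since the gap between DKO and KO chose the genes. Of the 86 genes higher in KO, 66 (76.7%) had WT nearer to DKO and TKO nearer to KO, the pattern of Pecam1, Kit and Nfkbiz, against 55.1% of all genes tested. Of the 61 higher in DKO, 23 (37.7%) had that pattern, Fasl among them, and 24 (39.3%) had WT nearer to KO and TKO nearer to DKO, as in Nfkbid and Lfng, against 15.6% of all genes tested.

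Markers of other cells were low throughout. The summed level of 10 CD4 T cell markers was 1355 to 1625 CPM in DKO and 1409 to 1737 CPM in KO. The CD8 pair Cd8a and Cd8b1 summed to 10.2 to 18.7 CPM in DKO and 13.9 to 51.5 CPM in KO, 8 B cell markers to 28.7 to 37.3 and 34.7 to 54.4 CPM, and 7 NK cell markers to 24.6 to 45.1 and 12.8 to 34.4 CPM. The 7 myeloid markers found summed to 34.7 to 38.4 CPM in DKO and 46.2 to 65.0 CPM in KO without overlap, nearly all of it Ctss (28.7 to 33.5 and 42.0 to 62.0 CPM), which was called (-0.61, adjusted p = 0.013). Ctss was not called without KO library 1 (-0.49, adjusted p = 0.088), without both libraries that stood apart (-0.52, adjusted p = 0.18), or under the deposited and upper-quartile scalings. Of the NK cell markers Klrd1 was called at under 2 CPM (0 to 0.25 CPM in DKO and 0.31 to 1.6 CPM in KO), and it lost the call in 13 of 20 alternatives. Of the markers found, none was at 0 in all 8 libraries, and list members that were not found have no value here. The part of such cells in the genes higher in KO, among them Cd74, was not tested. In bulk RNA, fewer cells of a type and less RNA per cell cannot be told apart. The 7 mitochondrially encoded genes found summed to 3616 to 6171 CPM in DKO and 5483 to 6269 CPM in KO, and none was called.

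The authors' deposited table lists 114 genes for the same pair of groups at a false discovery rate under 0.05, 36 higher in DKO and 78 higher in KO. Of the 147 genes called under all 5 scalings, 73 (49.7%) were among them, which is 64% of the authors' deposited calls, and all 73 had the same direction in both.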

How the data were processed

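Total RNA was sequenced in 64 libraries. A single table of 23134 genes was deposited. Per the file headers it holds a list of 4 normalized counts per group, group means (signal, in normalized counts), and an adjusted p-value and a log2 fold change for each comparison. The genome build was GRCm38, per the submitters' processing notes. Aligner, counter and strand setting: not given in the sources used here. Hence reads of overlapping genes on opposite strands cannot be told apart. Low values were whole multiples of a step in each library (100% whole, tolerance 0.1), and reads were recovered from it, 5369337 to 11663257 per library.

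A count model had been foreseen. Because the values are lists of normalized counts, limma 3.58.1 (R 4.3.3) was fitted to log2(value + 1) after TMM scaling, with trended, robust moderation fitting all 64 libraries with a mean for each group (residual df 48). This scale understates the changes of low genes. Genes needed 1.3 CPM in at least 4 libraries. The deposited lists carry no replicate numbers: a library is named by its place, and same-place DKO and KO libraries at 4 h had correlations of -0.175 to 0.09, so places do not pair them.

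Genes named were the targeted genes, the 12 largest differences in each direction (called under all scalings, groups not overlapping, at least 5 CPM, no predicted gene), up to 4 called members per list and direction with all reported targets, and the 5 largest changes over time in each direction. Members and the 39 lists were chosen with earlier results of these data known. A few items of these lists are not reported here. Alternatives are in the closing section. The fit was tested on simulated data.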

Additional observations from a re-analysis of the deposited data

Results flagged for a closer look

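Among the genes named, 134 groups of 4 libraries were examined for a library far from the others, and 9 were found, where chance gives about 1 in 20 groups. KO library 1 was the highest of its group for Il2 (1351.2 CPM), Nfkbid (584.8 CPM), Tnf (336.0 CPM) and Igsf9b (3.8 CPM). DKO library 3 was the highest of its group for Rel (303.4 CPM), Il24 (99.0 CPM) and Adcy5 (19.8 CPM). DKO library 4 was the lowest of its group for Tfrc (439.2 CPM) and Birc3 (45.5 CPM).

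The difference between DKO and KO changed between 0 and 4 h, by the test of the change itself, in Tnfrsf25 (-2.05), Pecam1 (-1.57), Fchsd2 (-1.49), Hrh2 (-1.49) and Id2 (-1.23), in log2 units. With only the groups compared in the fit, Pecam1 (adjusted p = 0.078), Hrh2 (0.14) and Id2 (0.20) were not called in limma, and Id2 was not called without DKO library 4 (0.056) or without both libraries that stood apart (0.19).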

How the results depend on the processing

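The count of 493 genes called at 4 h was 225 under the deposited scaling, 291 under median-of-ratios scaling, 212 under upper-quartile scaling, 186 under total CPM and 273 with only the groups compared in the fit. Leaving out 1 library gave 159 (without DKO library 4) to 500, and leaving out both libraries that stand apart, an alternative chosen after seeing the data, gave 146. Genes higher in DKO (74) were 130 under the deposited scaling, 25 to 75 without 1 library and 19 without both. Genes higher in KO (419) were 95 under the deposited scaling, 220 under median-of-ratios scaling, 108 under upper-quartile scaling, 103 under total CPM, 197 with only the groups compared, 134 to 425 without 1 library and 127 without both. The change between 0 and 4 h (30 genes) gave 13 under the deposited scaling, 12 under upper-quartile scaling, 17 under total CPM, 4 with only the groups compared, 10 to 44 without 1 library and 15 without both. The cause was not tested. With a replicate block on the place in the deposited lists, 508 genes were called. No DKO library at 4 h correlated best with the KO library of its own place. Against WT at 4 h, DKO libraries 2, 3 and 4 did correlate best with the WT library of their own place (0.219, 0.286 and 0.297). Whether same-place DKO and WT libraries share a batch was not tested. Over 51 called genes named, 896 of 1020 values under alternatives kept call and direction, 124 were no longer called, none was reversed, and 22 genes kept the call throughout. For Rc3h1 and Zc3h12a the exact permutation p was the smallest it can give with and without each library, so it says nothing about stability. The planned edgeR and DESeq2 fits were not run, because the table holds normalized values and not raw counts. Genes under 1.3 CPM in nearly all libraries were not tested in the main result. Without that filter 485 genes were called.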
